A study of Xenopus laevis with 6 samples.

Results

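Heat shock proteins of the cytosol and the mitochondrion were described in the brain of *Xenopus laevis* tadpoles at 2 h after an intracerebroventricular (i.c.v.) injection of leptin. The genes taken were the cytosolic HSP90s *hsp90ab1* and *hsp90aa1.1*, the cytosolic HSP70 *hspa8*, the HSP110s *hspa4* and *hsph1*, the J protein *dnaja1*, the mitochondrial chaperones *hspa9*, *hspd1* and *hspe1*, and the heat shock transcription factor *hsf1*. A probe set was taken when the array annotation gave it exactly 1 gene symbol and that symbol, without its copy suffix, was 1 of these 10 names. *X. laevis* is an allotetraploid frog, so most genes have an L and an S copy, and both copies and all of their probe sets were kept. This gave 21 probe sets for 14 gene copies, of 32539 probe sets that were not array controls and 11303 genes with a symbol, and covered 9 of the 10 names. No probe set carried *hsp90aa1.1* as its only symbol, so that gene was not analysed here, and 1 further probe set that *hsph1.L* shares with *nck1.S* was not used. The genes were chosen by family and with differences between these same rxLeptin and saline arrays already known, so their differences are given below as a description and not as independent evidence.

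The rxLeptin tadpoles (*n* = 3 pools) received recombinant *Xenopus* leptin at 20 ng per g body weight, and the saline tadpoles (*n* = 3 pools) received 0.6% saline. All were at Nieuwkoop–Faber (NF) stage 54, and each pool held the dissected preoptic area and hypothalamus of 3 brains, to which the sample labels add the pituitary. The sources give neither strain nor sex, and RNA of each pool was labelled by a 3′ method and hybridized to 1 Affymetrix *Xenopus laevis* Genome 2.0 Array. Values are log2 expression, so a difference of 1 is a doubling. An array measures RNA relative to the rest of the pool, and fewer cells of a type cannot be told apart from less RNA per cell.

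Heat shock proteins are chaperones that keep other proteins folded. In the cytosol, J proteins pass unfolded clients to HSP70, HSP110s exchange the nucleotide that lets HSP70 release them, and HSP90 completes the folding of many kinases and steroid hormone receptors, including receptors that act in the hypothalamus. In the mitochondrial matrix, HSP70 draws in imported chains and the HSP60 barrel folds them under an HSP10 lid. Under heat or other protein damage, the transcription factor HSF1 is freed from these chaperones and raises transcription of many of their genes. These roles are known mainly from mammalian cells and yeast.

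At 2 h after rxLeptin, *hsph1.S* (difference in log2 means −0.50), *hspe1.L* (−0.29) and *hspa8.L* (−0.15) were lower on every rxLeptin array than on any saline array, by small amounts that exceeded the spread between pools. The HSP90β gene *hsp90ab1.S* was lower by more, −1.42 and −1.14, in 2 of its 4 probe sets, with much of the difference on 1 array. The mitochondrial *hspa9* and *hspd1*, the HSP110 *hspa4* and *hsf1* differed by less than 0.2 in every probe set, and in all but 1 of these the groups overlapped.

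The tissue labels fitted the array signals, since the hypothalamic markers *nkx2-1.L*, *trh* and *pmch.L* had a mean log2 signal of 9.39 to 9.53 on the rxLeptin arrays and 9.59 to 9.81 on the saline arrays, over 4 probe sets of which all 4 lay above the array-wide median of 7.34. The mean of 8 pituitary marker probe sets, 6 of them above that median, was 10.60, 10.51 and 9.94 on rxLeptin arrays 1, 2 and 3 and 10.79, 10.51 and 10.72 on saline arrays 1, 2 and 3, so rxLeptin array 3 carried the least pituitary signal. Control transcripts told the saline arrays from each other. The 3′ probe set of *actin* exceeded its middle probe set by 0.67, 0.60 and 0.66 on the rxLeptin arrays and by 2.83, 1.61 and 0.77 on the saline arrays. The 3′ to 5′ difference of *gapdh* was 1.11, 0.94 and 0.93 on the rxLeptin arrays and 2.71, 1.18 and 1.02 on the saline arrays, and that of *ef1a* was 2.93, 2.83 and 3.24 on the rxLeptin arrays and 4.47, 3.72 and 3.05 on the saline arrays. Loss of signal away from the 3′ end, the usual sign of broken RNA in 3′ labelling, was thus greatest on saline array 1, next on saline array 2, and on saline array 3 close to that on the rxLeptin arrays. For this reason the rxLeptin mean is also set against saline array 3 alone.

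**Figure D1:**
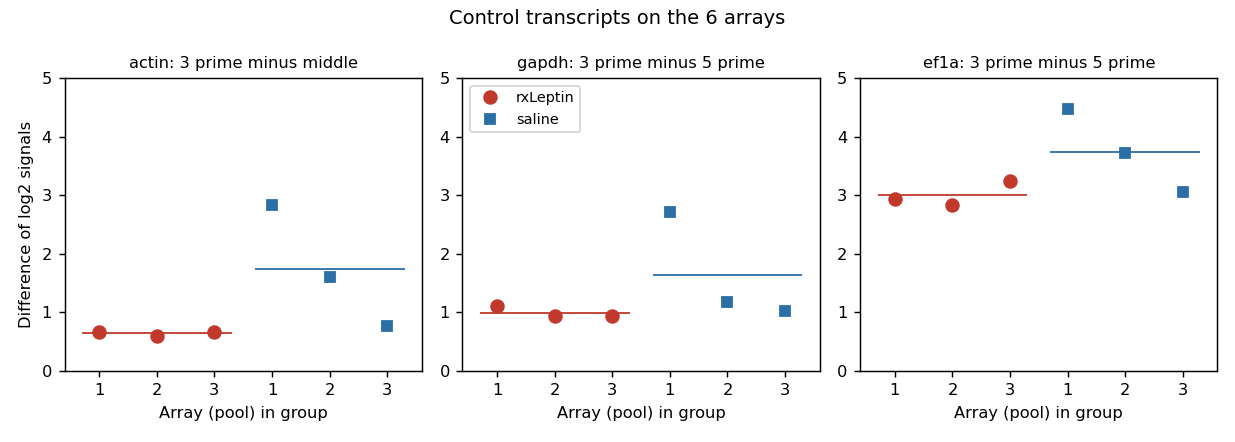
Difference in log2 signal between the 3′ probe set and the middle (*actin*) or 5′ (*gapdh*, *ef1a*) probe set of 3 control transcripts on each array, with horizontal lines at the group means. The rxLeptin arrays lie close together, while saline array 1 is highest in every panel, at 2.83 for *actin* and 2.71 for *gapdh*.

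Cytosolic HSP90 gave the largest differences of the family, in 2 of the 4 probe sets of *hsp90ab1.S*, the gene of the constitutive HSP90β. The other 2 probe sets of the same gene copy did not share them. Probe sets of a gene are numbered here from the highest mean signal down. Probe set 1 (Xl2.29353.1.S1_x_at) read 11.25, 11.05 and 9.41 on the rxLeptin arrays and 12.05, 12.12 and 11.82 on the saline arrays. All rxLeptin arrays lay below all saline arrays, by at least 0.57, and rxLeptin array 3 lay far below the other two. The rxLeptin mean was 10.57 ± 1.01 and the saline mean 11.99 ± 0.16 (SD, *n* = 3 each), a difference of −1.42, or 2.68-fold lower, the fifth lowest of 32539 probe sets (rank 5). Over all probe sets, 3.01% had a difference of −0.5 or lower. Without rxLeptin array 3 the difference was −0.85, and against saline array 3 alone it was −1.25.

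Probe set 2 of *hsp90ab1.S* (Xl2.29353.3.S1_a_at) read 10.88, 11.26 and 9.23 on the rxLeptin arrays and 11.41, 11.86 and 11.51 on the saline arrays. The groups were again apart, by only 0.15, with rxLeptin array 3 once more the low array. Its means were 10.46 ± 1.08 in rxLeptin pools and 11.59 ± 0.24 in saline pools (SD, *n* = 3 each), a difference of −1.14 that was −0.53 without rxLeptin array 3 and −1.05 against saline array 3 alone. Across the 6 arrays these 2 probe sets followed each other (Pearson's *r* = 0.96, a description over arrays that share the treatment).

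Probe set 3 (Xl2.29353.2.S1_at) read 9.98, 10.19 and 10.09 on the rxLeptin arrays and 10.62, 10.37 and 10.02 on the saline arrays. Here saline array 3 lay inside the rxLeptin range, the difference of −0.25 was 0.07 against saline array 3 alone, and rxLeptin array 3 did not stand apart. Probe set 4 (Xl2.26082.3.S1_a_at) read 10.06, 10.17 and 10.30 on the rxLeptin arrays and 10.00, 10.21 and 10.02 on the saline arrays, a difference of 0.10 with overlapping groups and the highest value on rxLeptin array 3. Its correlation with probe set 1 was −0.69. In the manufacturer's naming an *x* marks probe sets that can also bind other transcripts and an *a* those that bind several transcripts of 1 gene. Which transcripts each probe set of *hsp90ab1.S* binds was not tested.

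**Figure D2:**
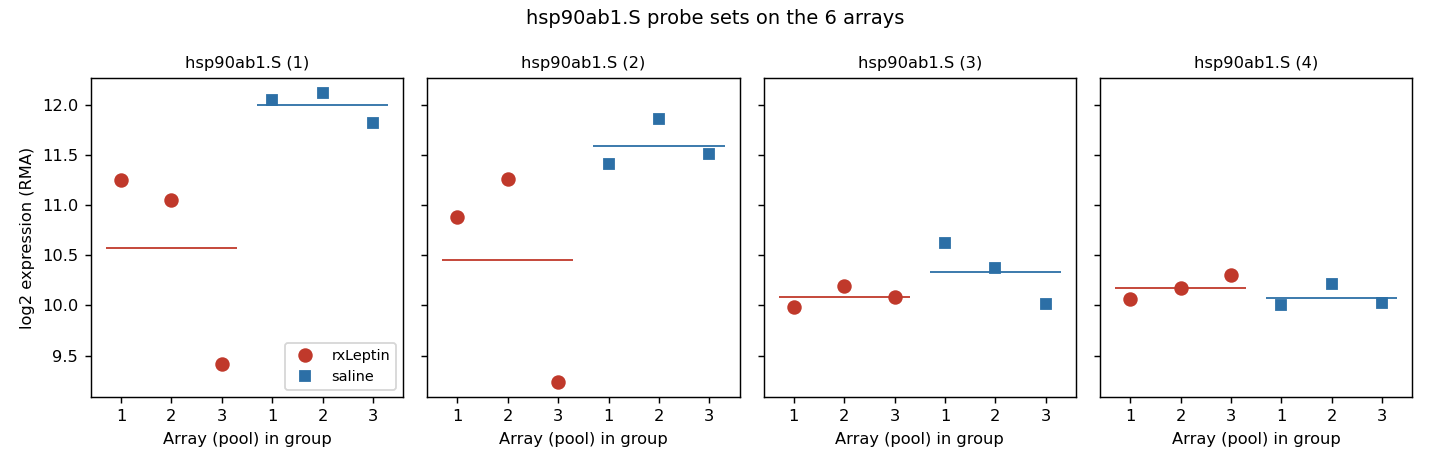
Log2 expression of the 4 probe sets of *hsp90ab1.S* on the 3 rxLeptin arrays (circles) and the 3 saline arrays (squares), with lines at the group means. Probe sets 1 and 2 are lower on every rxLeptin array and lowest on rxLeptin array 3, at 9.41 and 9.23, whereas the groups overlap in probe sets 3 and 4.

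The named genes outside the family whose values were most like those of *hsp90ab1.S* probe set 1 over the 6 arrays, among 15474 probe sets with 1 symbol, were *nusap1.L*, a spindle protein (*r* = 0.998), the histone gene *h2ac7.L* (*r* = 0.994), *socs5.L*, a suppressor of cytokine signaling (*r* = 0.991), *hdgfl2.L* (*r* = 0.991) and the transcription factor gene *tcf12.L* (*r* = 0.991). In *nusap1.L* the values were 6.87, 6.75 and 6.14 on the rxLeptin arrays and 7.20, 7.21 and 7.05 on the saline arrays. In *tcf12.L* they were 7.77, 7.84 and 6.87 on the rxLeptin arrays and 8.42, 8.44 and 8.15 on the saline arrays. The signal of *h2ac7.L* was far below the array-wide lower quartile of 5.15. It read 3.52, 3.50 and 3.32 on the rxLeptin arrays and 3.58, 3.58 and 3.57 on the saline arrays. Since the 5 were picked for their likeness to a probe set with its far lowest value on rxLeptin array 3, their low values there follow from the choice. That array was the lowest of the 6 in 8 of the 21 heat shock probe sets and in 19.9% of all probe sets. The part that this array, or its lower pituitary signal, has in the *hsp90ab1.S* difference was not tested.

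Among the cytosolic HSP70s, the constitutive *hspa8.L* varied least between pools of a group, at 13.36, 13.33 and 13.34 on the rxLeptin arrays and 13.49, 13.48 and 13.51 on the saline arrays. The groups did not overlap although the difference was only −0.15, against an SD of 0.01 in each group, and it lay between −0.16 and −0.14 with any 1 array left out. Saline array 3, whose control transcripts resembled those of the rxLeptin arrays, was the highest of the 6. Over the 6 arrays this probe set varied less than the median probe set, and such probe sets were kept out of the test across the array (limma, described after the members). When the fit was run with no filter, *hspa8.L* was tested and not called (adjusted *p* = 0.115 by limma). The stress-induced HSP70s, which are not among the 10 genes, showed no such separation. Probe values of *hsp70.L* were 9.13, 8.91 and 8.94 on the rxLeptin arrays and 9.25, 9.07 and 8.78 on the saline arrays, and neither this probe set nor either of those of *hspa1a.S* passed the test. Both *hspa1a.S* probe sets had low signal, with means in either group below the array-wide lower quartile of 5.15.

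The HSP110 *hsph1*, a nucleotide exchange factor of HSP70, had lower means with rxLeptin in both copies, most evenly in *hsph1.S*. The *hsph1.S* probe set read 9.88, 9.98 and 10.01 on the rxLeptin arrays and 10.40, 10.47 and 10.49 on the saline arrays. With means of 9.96 ± 0.07 in rxLeptin pools and 10.45 ± 0.05 in saline pools (SD, *n* = 3 each), the difference of −0.50, or 1.41-fold lower, was several times the spread of either group, and the nearest arrays of the groups were 0.39 apart. It was −0.53 to −0.46 with any 1 array left out and −0.53 against saline array 3 alone, so no single array set it. The *hsph1.L* probe set read 8.25, 8.11 and 8.09 on the rxLeptin arrays and 8.08, 8.46 and 8.78 on the saline arrays. Here saline array 1 lay at the low end of the rxLeptin range, so the groups overlapped. Its difference of −0.29 was −0.47 without saline array 1, −0.12 without saline array 3 and −0.63 against saline array 3 alone.

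The other HSP110, *hspa4*, did not separate the groups in any of 4 probe sets. In *hspa4.L* (Xl2.5799.1.S1_at) the values were 8.50, 8.53 and 7.70 on the rxLeptin arrays and 7.87, 8.47 and 8.55 on the saline arrays. The low arrays were rxLeptin array 3 and saline array 1, and the difference of −0.05 was 0.22 without rxLeptin array 3 and −0.27 without saline array 1. The *hspa4.S* probe set 3 (Xl2.5799.1.S1_s_at), made from the same target as that of *hspa4.L*, read 9.15, 9.06 and 8.31 on the rxLeptin arrays and 8.44, 8.92 and 9.05 on the saline arrays. It followed *hspa4.L* array by array (*r* = 0.98), so these probe sets are not separate measurements of the copies. The remaining *hspa4.S* probe sets read 11.53 to 11.79 and 9.54 to 9.67 on the rxLeptin arrays and 11.54 to 11.71 and 9.30 to 9.59 on the saline arrays, with differences of 0.03 and 0.17.

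The J protein *dnaja1.L*, which hands clients to HSP70, had probe sets that moved in opposite directions (*r* = −0.60). Probe set 1 (Xl2.6473.2.A1_a_at) read 11.92, 11.98 and 12.11 on the rxLeptin arrays and 11.43, 11.69 and 12.12 on the saline arrays. Saline array 3 was at the level of the highest rxLeptin array, and saline array 1 was the low one. The difference of 0.26 was 0.10 without saline array 1, 0.23 without saline array 2 and 0.45 without saline array 3. Against saline array 3 alone it was −0.11. Fitted without array weights and with the 3′ to middle *actin* difference as a further term, it was −0.09 (adjusted *p* = 0.885 by limma). The part of RNA quality in this difference was not tested. Probe set 2 (Xl2.51246.2.S1_a_at) read 8.08, 8.56 and 8.48 on the rxLeptin arrays and 8.70, 8.70 and 8.28 on the saline arrays, a difference of −0.19 that was 0.09 against saline array 3 alone.

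**Figure D3:**
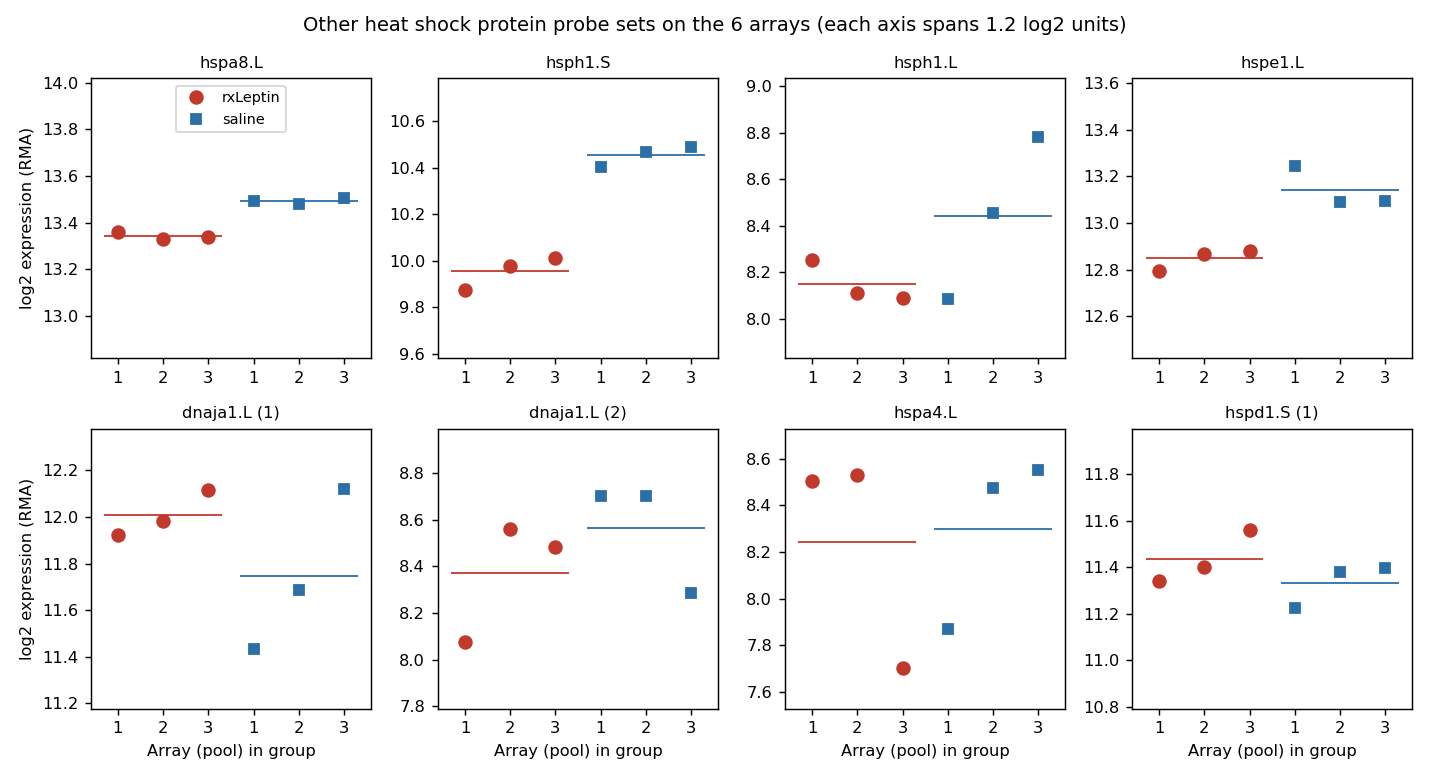
Log2 expression of 8 further heat shock protein probe sets on the rxLeptin arrays (circles) and saline arrays (squares), with lines at the group means and axes of equal length. The groups lie apart in *hspa8.L*, *hsph1.S* and *hspe1.L*, by 0.12, 0.39 and 0.21, and overlap in the other panels.

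In mitochondria the HSP10 gene stood apart from its partner. The co-chaperonin *hspe1.L*, the lid of the HSP60 barrel, read 12.80, 12.87 and 12.88 on the rxLeptin arrays and 13.24, 13.09 and 13.09 on the saline arrays. The groups were 0.21 apart, and the difference of −0.29, from means of 12.85 ± 0.05 in rxLeptin pools and 13.14 ± 0.09 in saline pools (SD, *n* = 3 each), was −0.32 to −0.24 with any 1 array left out and −0.25 against saline array 3 alone. The barrel itself, *hspd1*, differed by much less. In *hspd1.S* probe set 1 (Xl2.23194.1.S1_at) read 11.34, 11.40 and 11.56 on the rxLeptin arrays and 11.22, 11.38 and 11.39 on the saline arrays, a difference of 0.10. Probe set 2 (Xl2.36991.2.S1_at) read 11.31, 11.38 and 11.50 on the rxLeptin arrays and 11.24, 11.23 and 11.30 on the saline arrays. Its groups did not overlap, but only by 0.01, and its difference was 0.14. The *hspd1.L* probe set read 4.98, 4.95 and 4.77 on the rxLeptin arrays and 5.05, 5.11 and 4.84 on the saline arrays, a difference of −0.10. None of the 3 *hspd1* probe sets varied enough to be tested, so the contrast between *hspe1* and *hspd1* was not tested either.

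The mitochondrial HSP70 *hspa9* (mortalin), which pulls imported proteins into the matrix, was at the same level in both groups within the spread of the pools. The *hspa9.L* probe set read 10.24, 10.11 and 10.41 on the rxLeptin arrays and 10.13, 10.04 and 10.45 on the saline arrays, a difference of 0.05. In *hspa9.S* the values were 10.49, 10.37 and 10.68 on the rxLeptin arrays and 10.41, 10.49 and 10.66 on the saline arrays, a difference of −0.01. The third array of either group was the highest in both copies (*r* = 0.87 between the copies).

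The heat shock factor *hsf1* showed no separation in its 2 probe sets, which had low signal. Their means over the 6 arrays were 5.73 and 5.28, against an array-wide lower quartile of 5.15. The probe set annotated as *hsf1* without a copy suffix read 6.07, 5.63 and 5.45 on the rxLeptin arrays and 5.84, 5.88 and 5.53 on the saline arrays, a difference of −0.04. That of *hsf1.S* read 5.28, 5.23 and 5.10 on the rxLeptin arrays and 5.38, 5.47 and 5.23 on the saline arrays, a difference of −0.16 that was −0.03 against saline array 3 alone. Transcript level says nothing of whether the HSF1 protein was active.

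Counted together, the 21 probe sets did not move as a group. The difference was positive in 8 and negative in 13, with a median of −0.05 against −0.03 over all 32539 probe sets, and its size was at least 0.2 in 7 (33.3%, against 37.4% of all probe sets). The groups did not overlap in 6, of which 1 was higher with rxLeptin (11.7% of all probe sets were) and 5 were lower (13.4% of all). Those 5 were both leading probe sets of *hsp90ab1.S* and those of *hspa8.L*, *hsph1.S* and *hspe1.L*. Groups that do not overlap keep their direction against saline array 3 alone by definition, so that direction is no further check on them. Over all 21, the direction was the same against saline array 3 alone in 13, and it was the same whichever array was left out in 15.

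**Figure D4:**
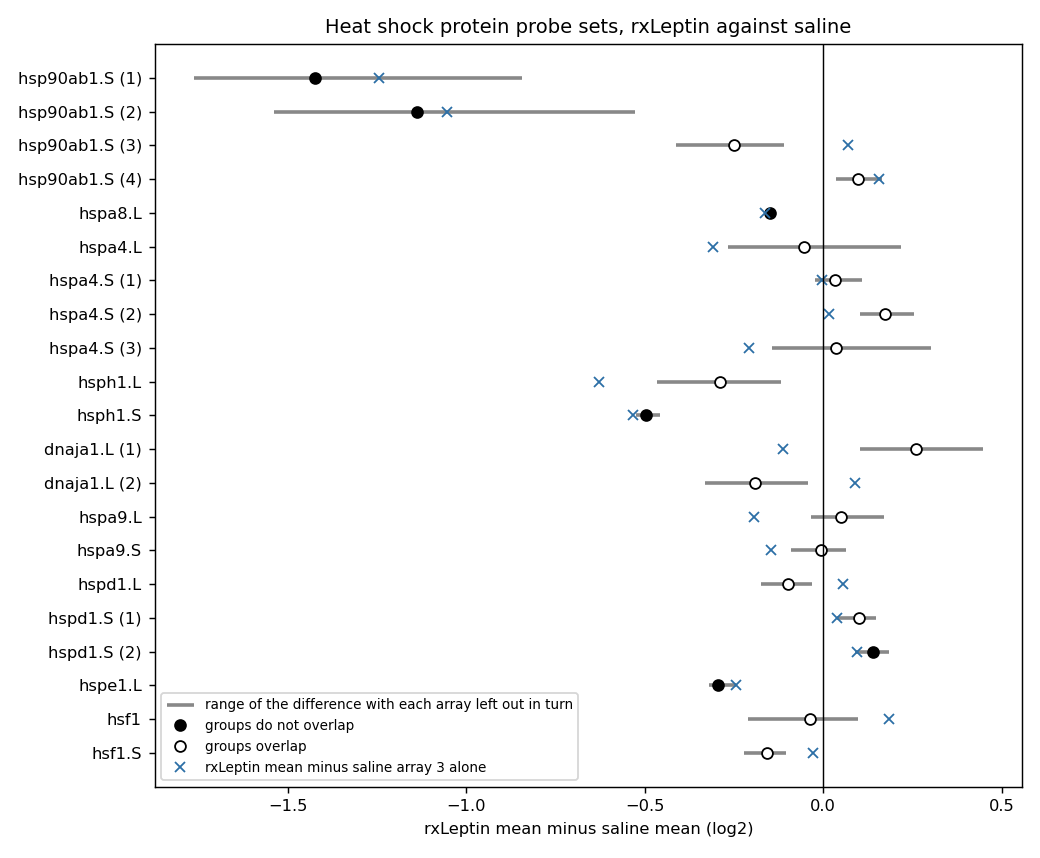
Difference between the rxLeptin mean and the saline mean (log2) for each of the 21 probe sets, filled where the groups do not overlap and open where they do, with a bar for the range over the 6 differences with 1 array left out and a cross for the rxLeptin mean minus saline array 3 alone. Most points lie within 0.2 of 0, and *hsp90ab1.S* probe sets 1 and 2, at −1.42 and −1.14, lie far to the left with the longest bars.

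The fit across the array (limma with array weights, Benjamini–Hochberg adjusted *p* under 0.05, over the 16269 probe sets that passed the variance filter) held 13 of the 21. It called 1 higher, *dnaja1.L* probe set 1 with a log2 fold change of 0.29 (standard error 0.10), and 5 lower. The 5 were *hsp90ab1.S* probe sets 1 and 2 with −1.17 (standard error 0.24) and −0.83 (standard error 0.28), *hsph1.S* with −0.50 (standard error 0.09), *hsph1.L* with −0.31 (standard error 0.10) and *hspe1.L* with −0.25 (standard error 0.09). With 1 array left out, the fitted value of *hsp90ab1.S* probe set 1 was −1.88 without rxLeptin array 1 and −1.78 without rxLeptin array 2, and that of probe set 2 was −1.60 without rxLeptin array 1, −1.79 without rxLeptin array 2 and −0.46 without saline array 2. The fitted value of *hsph1.L* was −0.48 without saline array 1 and −0.13 without saline array 3, and that of *dnaja1.L* was 0.08 without saline array 1. The other 7 were not called. Over all tested probe sets 46.3% were called, 23.1% higher and 23.1% lower, and the genes were chosen with this contrast known, so nothing is read from their count. The fold changes differ from the differences of means because the arrays were weighted unequally. The weights were 1.2, 4.27 and 0.60 on rxLeptin arrays 1, 2 and 3 and 0.3, 3.96 and 0.27 on saline arrays 1, 2 and 3. The fitted values thus rest mostly on array 2 of each group. Saline array 3, whose control transcripts were closest to those of the rxLeptin arrays, had the lowest weight. When the array weights were left out, no probe set passed (0%, with a lowest adjusted *p* of 0.0525 and 4262 of 16269 at an unadjusted *p* under 0.05, among them 3 of the 13), and none passed without saline array 1 or without saline array 2. All 6 of these calls were also lost without saline array 3.

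The other chaperone genes of the same machinery were taken from 9 lists, written with earlier results of these data known, and are given beside the same background. They came to 149 probe sets of 120 genes, of which 75 were tested, 19 rose and 25 fell, and 58.7% of the tested ones passed against 46.3% of all. The genes *dnajb11*, *dnajc3* and *dnaja3* counted both as J proteins and in the list of their compartment, but were not doubled in these totals. The median difference over the 149 was −0.07 against −0.03 over all probe sets, and −0.11 against 0.02 when the rxLeptin mean was set against saline array 3 alone. The groups did not overlap in 14 that were higher with rxLeptin (9.4%, against 11.7% of all) and in 41 that were lower (27.5%, against 13.4%). Of these 41, 33 (80.5%) had their highest value on saline array 1, the array with the largest control differences, as did 74.6% of the lower, separate probe sets of the whole array (3242 of 4346). The part of RNA quality in these differences was not tested. As for the whole array, none of the calls in these lists remained without array weights, without saline array 1 or without saline array 2.

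Co-chaperones of HSP90 went both ways. The list held 17 genes, and of its 11 tested probe sets 2 rose and 3 fell (45.5% passed, against 46.3% of all tested). Among those that fell was *ahsa1.S*, the activator of the HSP90 ATPase, which read 10.58, 10.72 and 10.63 on the rxLeptin arrays and 11.38, 11.04 and 11.11 on the saline arrays (log2 fold change −0.38, standard error 0.10, adjusted *p* = 0.00965 by limma). The groups were apart on all arrays, and saline array 1 was the highest. The *ahsa1.L* probe set, with a log2 fold change of −0.05, did not pass (adjusted *p* = 0.675 by limma). The *cdc37* relative *cdc37l1.S* read 5.88, 5.73 and 5.29 on the rxLeptin arrays and 6.42, 6.35 and 6.09 on the saline arrays (log2 fold change −0.62, adjusted *p* = 0.00158), while a second probe set with a difference of −0.19 did not pass. The remaining fall was in *nudc.L*, with a log2 fold change of −0.30 (adjusted *p* = 0.0273) that was −0.18 without rxLeptin array 1. The risers were *ppp5c.S*, a phosphatase bound to HSP90, at 0.33 (adjusted *p* = 0.0179; 0.20 without saline array 2), and *ptges3.L*, the p23 co-chaperone that steadies the closed HSP90 dimer, at 0.29 (adjusted *p* = 0.027; 0.16 without saline array 1). A second *ptges3.L* probe set, with a difference of 0.11 and overlapping groups, was not tested. Of the HSP70 co-chaperones (7 genes, 3 probe sets tested), 1 fell and none rose (33.3% passed, against 46.3% of all tested). Of the HSP70 and HSP110 relatives (6 genes, 6 probe sets tested), 2 rose and none fell (33.3% passed). The single fall was *bag6.L* and the rises were in 1 probe set of each copy of *hspa14*. In all 3 the groups overlapped. The called probe sets of *hspa14.L* and *hspa14.S* had saline means of 5.23 and 5.73, with differences of −0.01 and 0.06 against saline array 3 alone. A probe set of *hspa14.L* with higher signal differed by −0.15 and was not tested. A probe set of *hspa14.S* with higher signal differed by 0.14 and did not pass (adjusted *p* = 0.0502 by limma).

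The J proteins, partners of HSP70 with a shared J domain, made up the largest list. It held 35 genes, and of its 20 tested probe sets 3 rose and 12 fell (60% fell, against 23.1% of all tested). The groups were apart and lower in 14 of 43 probe sets (32.6%, against 13.4% of all). Of these 14, 13 (92.9%) had their highest value on saline array 1, as did 74.6% of the lower, separate probe sets of the whole array. The part of RNA quality in these falls was not tested. The lowest value was in *dnajc8.S*, a J protein found in spliceosomes, which read 7.73, 7.39 and 6.75 on the rxLeptin arrays and 9.30, 8.37 and 8.06 on the saline arrays (log2 fold change −1.02, standard error 0.17, adjusted *p* = 0.000902). Saline array 1 was far above the others there, and a second probe set of the gene differed by only −0.22. The *dnaja1* relative *dnaja4.2.S* read 6.65, 6.52 and 6.20 on the rxLeptin arrays and 7.13, 7.25 and 6.92 on the saline arrays (log2 fold change −0.71, standard error 0.11, adjusted *p* = 0.000503). Saline array 2 was the highest there, and the log2 fold change was −0.58 without saline array 1 and −0.52 without saline array 2. The difference of means in *dnaja4.2.S* was −0.65, and −0.47 against saline array 3 alone. A fall of 0.55 on the log2 scale (adjusted *p* = 0.00138 by limma) was called in 1 probe set of *dnajc2.S*, a J protein of the ribosome. A similar one was called in its *x* counterpart. Further probe sets of the gene, at 0.14 and −0.17, did not reach the variance filter and were not tested. The latter read 5.29 on saline array 1 and 4.50 to 4.76 on the other arrays. In the other direction, *dnajb6.S*, a J protein that keeps aggregating proteins soluble, read 10.40, 10.65 and 10.91 on the rxLeptin arrays and 9.58, 9.98 and 10.37 on the saline arrays (log2 fold change 0.64, standard error 0.12, adjusted *p* = 0.0017). In this gene saline array 3 lay only just below the lowest rxLeptin array.

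The small heat shock proteins, which hold unfolded proteins until HSP70 takes them, had negative differences in 7 of 7 probe sets, against 17991 of 32539 over the array, with 3 falls among 4 tested (75%, against 23.1% of all tested). The largest was in *hspb1.S* (HSP27), which read 4.86, 5.64 and 5.50 on the rxLeptin arrays and 6.46, 6.45 and 6.16 on the saline arrays (log2 fold change −0.96, standard error 0.16, adjusted *p* = 0.00098). Against saline array 3 alone the difference of means was −0.83. The fall in *hspb11.L*, whose product in mammals belongs to the intraflagellar transport complex of cilia, was −0.42 (adjusted *p* = 0.00525), and the last was *cryaa.S*, a lens crystallin gene, with overlapping groups. Saline array 1 was the highest of the 6 in 6 of the 7 probe sets, and their median difference of −0.21 was −0.03 against saline array 3 alone. Several of the 7 had low signal. In *hspb8.L*, *hspb6.L* and *hspb1.L* the means of both groups lay below the array-wide lower quartile of 5.15. Their differences were only −0.09, −0.02 and −0.06. The rxLeptin mean of *hspb1.S*, 5.33, was near that quartile.

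The cytosolic chaperonin CCT is a ring that folds actin and tubulin, and prefoldin delivers them to it. The list held 25 probe sets of 17 genes, of which 12 were tested, and 75% of these passed, against 46.3% of all tested. The 7 that rose were all of CCT subunits and the 2 that fell were both of the prefoldin gene *pfdn5.S* (23.1% of all tested rose and 23.1% fell). The groups were apart and higher in 6 of the 25 (24%, against 11.7% of all). They were apart and lower in 7 (28%, against 13.4% of all). The other tested prefoldin probe sets, of *vbp1.L* and *pfdn6.S*, did not pass (adjusted *p* = 0.207 and 0.206). Probe sets of 1 CCT subunit did not always share a direction. Beside its called probe set, with a difference of 0.35, *cct2.S* had untested ones at −0.15, with separate groups, and −0.13. Those of *cct5.S* ran from −0.18 to 0.15, with separate groups at both ends. In the called probe sets of *cct2.S* and *cct6a.S* the groups overlapped, at 0.02 and −0.01 against saline array 3 alone. The subunit gene *cct4.L* read 10.77, 10.77 and 10.72 on the rxLeptin arrays and 10.48, 10.25 and 10.47 on the saline arrays (log2 fold change 0.49, standard error 0.09, adjusted *p* = 0.0021). Every saline array lay below, including saline array 3, although the value was 0.29 without saline array 2. In *cct8.L* (0.41, adjusted *p* = 0.00658) and *cct3.S* (0.34, adjusted *p* = 0.0134) saline array 3 came within 0.1 of the rxLeptin mean, and the log2 fold changes were 0.23 and 0.21 without saline array 1. The fall in *pfdn5.S* was −0.43 (adjusted *p* = 0.00799), from 11.49, 11.55 and 11.43 on the rxLeptin arrays and 12.50, 11.91 and 11.99 on the saline arrays, and was −0.72 without saline array 2 and −0.68 without saline array 3.

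Chaperones of the endoplasmic reticulum (ER) were called in both directions, with 3 rises and 3 falls among 13 tested probe sets of a list of 19 genes. Of these 13, 46.2% passed, against 46.3% of all tested. The falls were in both copies of *dnajb11*, the J protein of the ER HSP70, and in the glycoprotein chaperone *canx.S*. Those of *dnajb11* are also among the falls of the J proteins. In *dnajb11.S* the values were 8.47, 8.63 and 8.48 on the rxLeptin arrays and 9.42, 9.09 and 9.25 on the saline arrays (log2 fold change −0.54, standard error 0.10, adjusted *p* = 0.00167). Here the difference against saline array 3 alone, −0.72, was close to that against all 3 saline arrays, −0.73. The log2 fold change of *dnajb11.L* was −0.36 (adjusted *p* = 0.0146; −0.60 without saline array 2) and that of *canx.S* −0.27 (adjusted *p* = 0.0366). The ER HSP70 itself, *hspa5*, did not reach the variance filter in any of its 3 probe sets. That of *hspa5.S* read 10.44 to 10.57 on the rxLeptin arrays and 10.42, 10.51 and 11.08 on the saline arrays. Its difference of −0.16 was −0.57 against saline array 3 alone. Those of *hspa5.L*, at −0.08 and −0.10, were −0.27 and −0.29 against it. The median difference of the list was −0.08 (−0.03 over all probe sets), and −0.22 against saline array 3 alone (0.02 over all). The ER HSP90 *hsp90b1.L*, at 12.44, 12.40 and 12.46 on the rxLeptin arrays and 12.15, 12.23 and 12.48 on the saline arrays, did not pass. The rises, in *pdia3.S*, *pdia6.S* and *sdf2l1.L*, all had overlapping groups.

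The partners of the mitochondrial chaperones had 3 rises and 2 falls among 8 tested probe sets of a list of 13 genes (62.5% passed, against 46.3% of all tested). They included the largest rise with separate groups in the 9 lists. It was in *trap1.L*, the mitochondrial HSP90, which read 5.92, 5.85 and 6.02 on the rxLeptin arrays and 4.98, 4.79 and 5.69 on the saline arrays (log2 fold change 1.03, standard error 0.12, adjusted *p* = 0.00016). Saline array 3 was the closest to the rxLeptin arrays, and the value was 0.64 without saline array 1 and 0.55 without saline array 2. Its saline mean of 5.15 lay at the array-wide lower quartile (5.15). A second probe set of the gene, with a much higher saline mean of 9.88, differed by only 0.08. The exchange factor of the matrix HSP70, *grpel1.L*, read 10.23, 10.22 and 10.20 on the rxLeptin arrays and 11.20, 10.80 and 10.52 on the saline arrays (log2 fold change −0.59, standard error 0.10, adjusted *p* = 0.00108). Its saline values followed the control transcripts, highest on saline array 1 and lowest on saline array 3, and a second probe set with a difference of −0.25 did not pass. The matrix J protein *dnaja3.L* fell in 1 probe set (−0.30, adjusted *p* = 0.033; −0.48 without saline array 2 and −0.47 without saline array 3) and rose in another with overlapping groups. Both probe sets are also counted among the J proteins.

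Of the factors around HSF1, both copies of *hsbp1* fell, the only 2 probe sets tested in that list (23.1% of all tested probe sets fell). HSBP1 is a small protein that binds HSF1 and restrains it in mammalian cells and worms. In *hsbp1.S* the values were 8.10, 8.51 and 8.40 on the rxLeptin arrays and 9.48, 9.02 and 9.17 on the saline arrays (log2 fold change −0.64, standard error 0.12, adjusted *p* = 0.00195). The groups were well apart, and the difference of −0.83 against saline array 3 alone was close to that of −0.88 against all 3. In *hsbp1.L* the values were 12.22, 12.23 and 12.22 on the rxLeptin arrays and 12.90, 12.49 and 12.47 on the saline arrays (log2 fold change −0.29, standard error 0.10, adjusted *p* = 0.031), with −0.46 without saline array 2 and −0.47 without saline array 3. The factor gene *hsf2.L* was too even to be tested.

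**Figure D5:**
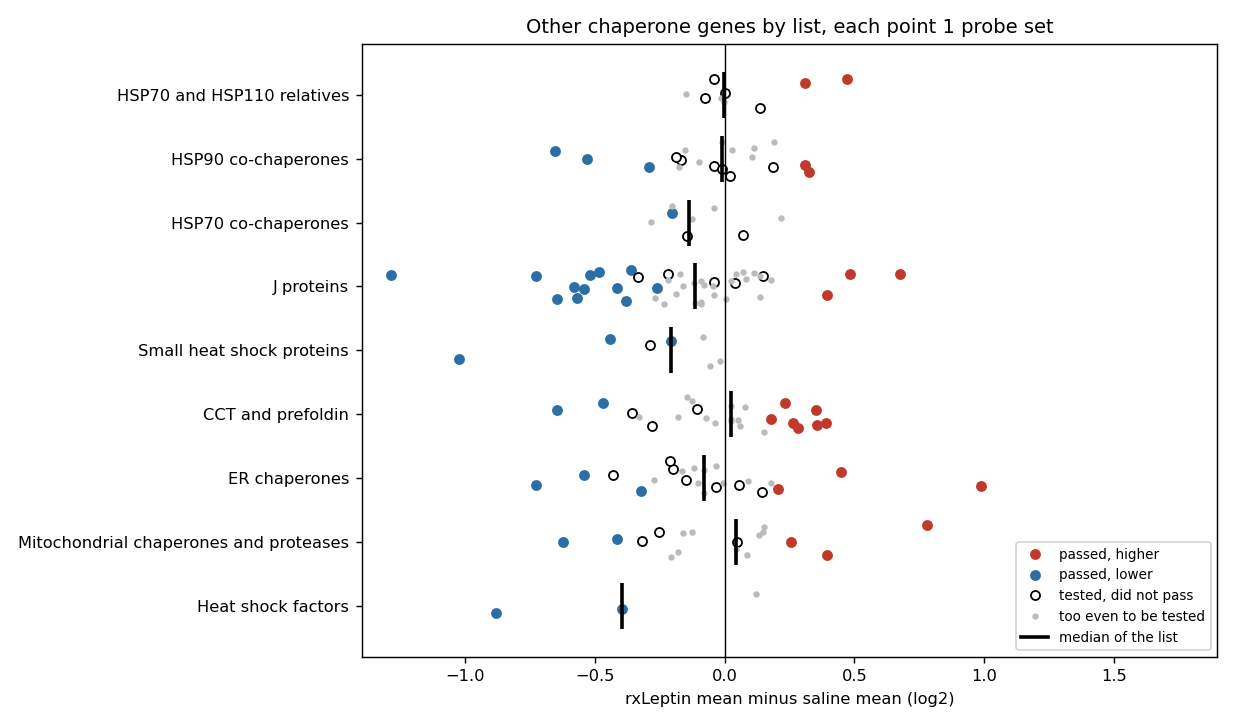
Difference between the rxLeptin mean and the saline mean (log2) for the probe sets of 9 lists of other chaperone genes, coloured by the outcome of the limma fit with array weights, with a black bar at the median of each list. The J proteins hold 12 falls and 3 rises and the CCT and prefoldin list 7 rises and 2 falls, while the medians of all lists but the heat shock factors lie between −0.21 and 0.05.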

How the data were processed

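The authors deposited log2 expression values, made per the paper's methods by Robust Multichip Average (background correction, normalization between arrays and summary of probes) in affy. The submitters' processing notes also name limma. Scanner files were not used here. Array medians lay between 7.31 and 7.35, and the number of arrays, 3 in each group, limits the precision, since arrays have no read depth. The uneven control transcripts of the saline arrays limit it further. From the 32635 probe sets 96 controls were removed, and the more variable probe sets were kept (interquartile range across arrays over 0.173, the median), standing in for a genefilter step without stated limits. The treatment was fitted with limma 3.58.1 (R 4.3.3) with default array weights, whose estimation did not converge, and eBayes, and *p*-values were adjusted by Benjamini–Hochberg. Means, SDs and differences over arrays carry no weights. An exact permutation test of 3 against 3 arrays cannot give a *p* below 0.1, so none was run on single probe sets. Tables and figures used Python 3.11.15, pandas 2.3.3 and matplotlib 3.10.9. The fit was tested on simulated data with known changes and the same independent noise on every array. Because that simulation held no arrays of uneven RNA quality, it does not show how the fit performs on these arrays.

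Symbols come from the array annotation, updated by gene ID for 15384 of the 15495 probe sets with 1 symbol, and 279 with several symbols and 16765 with none were tested but not named. All genes, lists and named-gene rules were chosen with earlier results of these data known. The text names each member with every probe set and, from each list, up to 3 called genes in each direction with separate groups. Genes beyond this rule (*hsp70.L*, *hspa1a.S*, *hspa14*, *ahsa1.L*, *bag6.L*, *cryaa.S*, *hspb8.L*, *hspb6.L*, *hspb1.L*, *cct2.S*, *cct5.S*, *cct6a.S*, *vbp1.L*, *pfdn6.S*, *hspa5*, *hsp90b1.L*, *pdia3.S*, *pdia6.S*, *sdf2l1.L*, *hsf2.L*) were named after their values were seen.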

Additional observations from a re-analysis of the deposited data

How the results depend on the processing

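No paired analysis was possible because the labels give no replicate numbers shared between the groups. Over all tested probe sets the counts were 3759 higher and 3766 lower. Without array weights, with arrays centred on their medians (which changed the weight of saline array 2 to 0.319 from 3.96) and with the 3′ to middle *actin* difference as a further term, they were 0 and 0, and so were the counts among the heat shock probe sets (1 and 5) and the other chaperones (19 and 25). Array weights estimated gene by gene, chosen after seeing the data, gave 2382 and 1612 over all, 0 and 2 heat shock probe sets, and 10 higher among the other chaperones. A filter on level gave 2073 and 1881 over all and 0 heat shock probe sets higher. A trend with robust eBayes gave 3 heat shock probe sets lower, and *hsp90ab1.S* probe sets 1 and 2 were no longer called (limma adjusted *p* = 0.0632 and 0.196). Probe set 2 was also not called with no filter (0.0897), a filter on level (0.146) or array weights estimated gene by gene (0.0712). With no filter 1 heat shock probe set was higher and 4 were lower. The higher probe set was then *hspa4.S* probe set 2 (Xl2.54062.1.S1_at, limma adjusted *p* = 0.0481), while *dnaja1.L* probe set 1 was not called (0.0588). Without *a*, *s* and *x* probe sets 0 were higher and 2 lower. With 1 array left out, the counts were 0 to 4033 higher and 0 to 4290 lower over all, 0 to 1 higher and 0 to 7 lower among the heat shock probe sets, and 0 to 20 higher and 0 to 28 lower among the other chaperones. Without rxLeptin array 2 the counts over all were 2446 and 1754, and without saline array 3 they were 1884 and 800. Only *dnaja1.L* probe set 1 turned its direction among called heat shock probe sets, to −0.094 with the *actin* covariate and to −0.114 against saline array 3 alone, which was chosen after seeing the data. With 3 pools in each group and uneven control transcripts on the saline arrays, no call here is independent of how the arrays are weighted.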
